A study of Homo sapiens with 18 samples.

Results

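The mRNA levels of 10 genes that carry pyruvate into mitochondria and set its use there were examined in head and neck squamous cell carcinoma (HNSCC) cell lines with and without hepatocyte growth factor (HGF), the ligand of the Met receptor. The genes were picked by symbol from a table of 19901 genes. They are the carrier subunits MPC1 and MPC2, the pyruvate dehydrogenase subunits PDHA1 and PDHB, the kinases PDK1, PDK2, PDK3 and PDK4, the phosphatase PDP1 and pyruvate carboxylase PC. Of the 10, 9 had enough reads to be tested, and PDK4 did not.

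Cells of Detroit 562 (a metastasis of a pharyngeal tumour), FaDu (a primary tumour of the hypopharynx) and SCC-9 (a primary tongue tumour) were seeded at 750000 per well. They were left untreated or given 50 ng/mL HGF for 16 h, with 3 libraries in each of the 6 groups. Each line is a single established cell line without stroma. SCC-9 alone was grown in DMEM F12, which held 400 ng/mL hydrocortisone, and the other lines in MEM-α, so that medium and line cannot be told apart. Per the methods the experiment was done 3 times. The sources do not say whether a replicate number stands for one of these runs, and p values measure the spread between libraries.

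Pyruvate made by glycolysis enters the mitochondrion through the carrier formed by MPC1 and MPC2. There the pyruvate dehydrogenase complex turns it into acetyl-CoA for the citric acid cycle, while PC turns it into oxaloacetate. The PDKs switch the complex off by phosphorylating its E1 alpha subunit, and the PDPs remove that phosphate. High PDK activity favours lactate production, the pattern known as the Warburg effect in many tumours, and PDK1 is a known target of the hypoxia factor HIF1.

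Sequence upstream of the genes whose levels moved most with HGF, and of PDK1, is shown here because the members differ in a short motif. It comes from RefSeq promoters on GRCh38.p14, read 5′ to 3′ on the strand of the gene. Capitals mark ACGTG or its reverse complement CACGT, the core letters of many HIF1 sites. The longer stretches lie outside GENCODE 44 exons and the PDK1 stretch is the last 30 bases before a RefSeq start, within an exon of another transcript.
PDK1, chr2:172556060-172556089 (plus strand): ccctgctgcccgcCACGTccctCACGTacc
PDK2, chr17:50095101-50095284 (plus strand): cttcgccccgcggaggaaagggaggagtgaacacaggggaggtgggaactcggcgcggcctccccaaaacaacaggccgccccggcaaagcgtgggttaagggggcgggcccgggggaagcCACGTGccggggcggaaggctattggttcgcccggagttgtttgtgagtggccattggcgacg
MPC1, chr6:166383014-166383188 (minus strand): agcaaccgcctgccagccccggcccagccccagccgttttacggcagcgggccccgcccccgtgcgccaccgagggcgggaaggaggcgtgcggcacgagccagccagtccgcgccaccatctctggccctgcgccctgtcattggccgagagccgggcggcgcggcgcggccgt
MPC2, chr1:167936113-167936246 (minus strand): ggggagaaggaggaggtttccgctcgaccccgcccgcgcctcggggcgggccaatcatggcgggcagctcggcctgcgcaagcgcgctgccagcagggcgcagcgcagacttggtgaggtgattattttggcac

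Within the 250 bases before a RefSeq start, ACGTG on either strand was present for 5 of the 9 members with a listed promoter (PDK1, PDK2, PDK3, PDHB and PC). Counted by promoter it was in 5 of the 16 promoters of members, beside 18.5% of 35116 promoters of all genes. In PDK2 and in PDHB both strands of the motif overlapped as CACGTG, which 6.34% of promoters held. The other listed promoters of PDK1, PDK2 and PC held no match. MPC1, MPC2, PDHA1 and PDK4 had no ACGTG or CACGT in this window. Only these letters were searched. GCGTG, which differs in the first base, was not counted. It occurs in the printed MPC1 and PDK2 stretches and in the PDHA1 promoter, so a lack of matches here is not a lack of HIF1 sites. These are matches of letters and not measured binding sites, and members with more than 1 listed promoter had more chances of a match.

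Total counts ranged from 35304770 to 44003970 per library. The squamous markers (KRT5, KRT14, KRT6A, KRT17, EPCAM, CDH1, TP63 and SFN) summed to 2510 to 11600 CPM (counts per 1e6 counts of the library), and 7 of 8 exceeded 1 CPM in every library. The 6 fibroblast markers summed to 3.41 to 99.4 CPM, the 4 leukocyte markers to 17 to 57.9 with CD68 alone above 1, and the 3 endothelial markers to 0.487 to 8.34. The leukocyte genes PTPRC and CD3E and the fibroblast gene LUM were below 0.1 CPM throughout. Of the same lists, the fibroblast genes COL1A1, COL1A2 and DCN and the endothelial genes CDH5 and VWF exceeded 1 CPM in some or all libraries. COL1A1 ran from 3.39 CPM (FaDu with HGF) to 86.6 (untreated SCC-9). MET was at 769 to 837 CPM in untreated Detroit 562, 139 to 161 in FaDu and 277 to 309 in SCC-9, and the HGF gene reached at most 0.0815. Libraries with the same replicate number in a line deviated together, though in Detroit 562 numbers 1 and 2 were not clearly set apart. The result of a second model, blocked on that number, is therefore given beside the calls it changed.

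HGF lowered PDK2 and both subunits of the pyruvate carrier in Detroit 562. PDK2 was also lower with HGF in every pair of libraries in FaDu and SCC-9, and it was called there once the replicate number was in the model. The dehydrogenase subunits PDHA1 and PDHB showed no detectable change in any line. Of the 9 tested members, 3 fell and 0 rose in Detroit 562, where 17.9% of 15475 genes passed both thresholds (adjusted p under 0.1, log2 fold change of 0.4 or more in size), 6.16% up and 11.7% down. In FaDu 0 of 9 were called against 0.0258% of genes, with an unadjusted p below 0.05 for PDK2 and PC and for 8.06% of genes. In SCC-9 0 of 9 were called against 0% of genes, with an unadjusted p below 0.05 for PDK2 and for 4.14% of genes. With the replicate block PDK2 was called in FaDu and in SCC-9 too, where 5.6% and 1.97% of genes were called. The median log2 change over all tested genes was -0.01 in Detroit 562 and 0.00 for SCC-9.

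**Figure D1:**
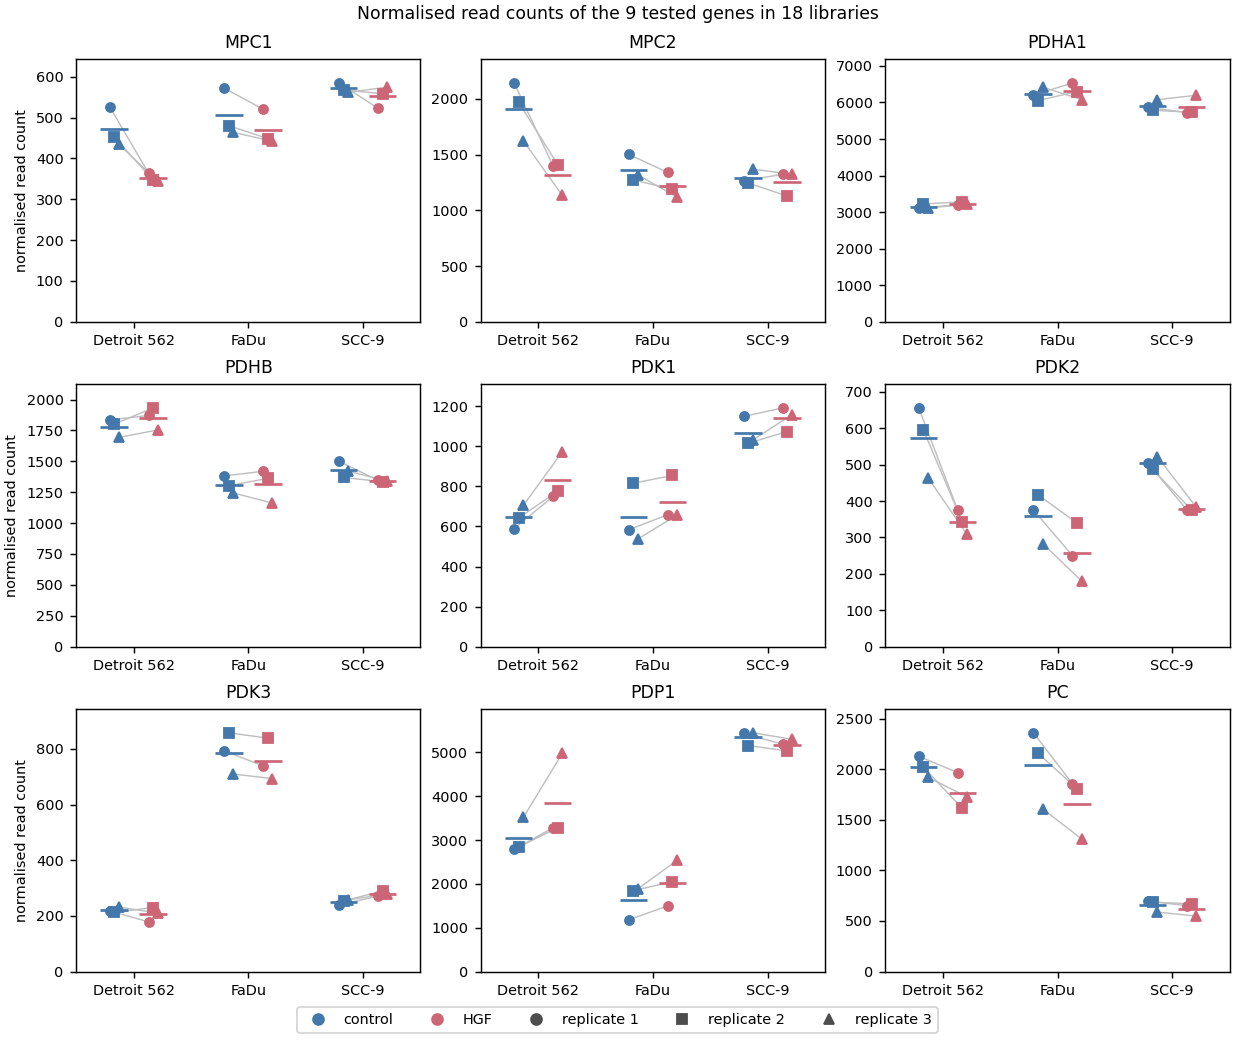
Normalised read counts (y axes, from 0) of the 9 tested genes in each line. Each point is 1 library, grey lines join control and HGF libraries of the same replicate number, and short bars are means of 3. PDK2 falls along every grey line, while MPC1 and MPC2 separate by treatment only in Detroit 562.

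MPC1 and MPC2 form the carrier of the inner mitochondrial membrane as a heterodimer. Their genes lie at chr6:166364919-166383013 and chr1:167916729-167937040 (GRCh38, both minus strand). Normalised read counts (counts scaled to a common library size by TMM) of MPC1 in untreated Detroit 562 were 527, 453 and 435, and with HGF 364, 347 and 344. For MPC2 they were 2143, 1968 and 1625 without and 1397, 1410 and 1133 with HGF. All 3 HGF libraries of Detroit 562 lay below all 3 control libraries for both genes, as was the case in either direction for 38.2% of all genes. MPC1 fell by 0.42 on the log2 scale (SE 0.102, 95% interval -0.64 to -0.21, adjusted p = 0.008 by the quasi-likelihood test of edgeR after Benjamini-Hochberg correction), a 1.34-fold difference. MPC2 fell by 0.54 (SE 0.112, -0.78 to -0.30, adjusted p = 0.00386), a 1.46-fold difference. The call of MPC1 rests on control replicate 1 of Detroit 562, the highest of its group, and without it the log2 change was -0.34 (edgeR adjusted p = 0.06), short of the minimum size. In bulk RNA a fall in RNA per cell and a fall in the share of cells that express the gene cannot be told apart.

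In FaDu the MPC1 counts were 572, 480.3 and 464 in control and 521, 449 and 442 in HGF libraries, and in SCC-9 they were 585, 568 and 562 against 523, 559 and 575. MPC2 counts were 1501, 1273 and 1316 against 1340, 1188 and 1119 in FaDu, and 1266, 1245 and 1370 against 1322, 1128 and 1324 in SCC-9. The groups overlapped for both genes in both of these lines. The log2 changes were -0.10 (95% interval -0.32 to 0.11) for MPC1 and -0.17 (-0.40 to 0.07) for MPC2 in FaDu, and -0.05 (-0.26 to 0.16) and -0.04 (-0.28 to 0.20) in SCC-9. The difference of the HGF effect between Detroit 562 and SCC-9 was -0.50 for MPC2 (SE 0.159, edgeR adjusted p = 0.175) and -0.37 for MPC1 (SE 0.143, adjusted p = 0.245). Of all genes 0.924% passed in this comparison. With the replicate block, where 26.9% passed, both did (adjusted p = 0.000726 and 0.0184). Against FaDu the differences were -0.38 for MPC2 and -0.32 for MPC1 (adjusted p = 0.386 and 0.403), in a comparison that 0.239% of genes passed, and with the block, where 19.1% of genes passed, both did too (0.00716 and 0.0511).

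PDHA1 encodes the E1 alpha subunit that the PDKs phosphorylate, and PDHB its E1 beta partner (chrX:19343893-19361705, plus strand, and chr3:58427630-58433857, minus strand). In Detroit 562 PDHA1 counts were 3102, 3222 and 3114 in control and 3206, 3281 and 3211 in HGF libraries, and PDHB counts 1835, 1801 and 1694 against 1872, 1933 and 1754. The ranges overlapped, and the log2 changes were 0.04 (95% interval -0.07 to 0.15) and 0.06 (-0.09 to 0.22). In FaDu PDHA1 had 6203, 6053 and 6420 counts without and 6534, 6298 and 6078 with HGF, and PDHB had 1382, 1303 and 1244 against 1420, 1362 and 1162. Neither differed beyond the spread of the libraries (log2 changes of 0.02 and 0.01). In SCC-9 PDHA1 counts were 5865, 5788 and 6077 against 5724, 5731 and 6196 (log2 change of -0.01). PDHB there was at 1501, 1370 and 1423 without and 1346, 1335 and 1337 with HGF. These PDHB groups did not overlap, but the log2 change of -0.10 (-0.25 to 0.06) had an unadjusted p of 0.212 and an adjusted p of 1 by edgeR. The intervals for PDHA1 stayed within -0.11 and 0.15 in all 3 lines, so a change of 0.4 lies outside them.

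PDK2 is the most widely expressed of the kinases across tissues (chr17:50094737-50112152, plus strand). In Detroit 562 its normalised counts were 656, 596 and 464 in control and 375, 343 and 309 in HGF libraries. In FaDu they were 375, 417 and 283 against 250.1, 339.7 and 180.4, and in SCC-9 504, 487 and 522 against 374.7, 375 and 383. PDK2 was lower with HGF in 9 of 9 pairs of the same number, which held for 8.42% of all genes, and the groups did not overlap in Detroit 562 and SCC-9. In SCC-9 17.4% of genes had separate groups, and in FaDu, where no member had them, 9.41%. In FaDu HGF replicate 2 lay above control replicate 3, since both treatments were lowest in replicate 3 and highest in replicate 2. The fall in Detroit 562 was 0.74 on the log2 scale (SE 0.185, 95% interval -1.13 to -0.35, edgeR adjusted p = 0.00962), or 1.67-fold. In FaDu the log2 change was -0.48 (SE 0.188, -0.88 to -0.08, edgeR adjusted p = 0.572), and with the replicate block -0.50 (adjusted p = 0.00201). Without FaDu HGF replicate 3 the change was -0.27 and without HGF replicate 2 it was -0.73, and neither was called. With a block shared by the 3 lines PDK2 was not called in FaDu or SCC-9. In SCC-9 the log2 change was -0.42 (SE 0.184, -0.81 to -0.03, adjusted p = 1), and with the block -0.42 (edgeR adjusted p = 0.00996). When the model was restricted to the 6 SCC-9 libraries, PDK2 had an edgeR adjusted p of 0.0954, and in the model of the 6 FaDu libraries it had 0.857.

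Averaged over the 3 lines, a contrast added after the counts had been seen, PDK2 fell by 0.55 (SE 0.107, edgeR adjusted p = 0.0048) and was the 1 member called, against 6.89% of all genes. MPC2 changed by -0.25 and MPC1 by -0.19 in this contrast (edgeR adjusted p = 0.0162 and 0.0302), below the minimum size. The HGF effect on PDK2 in Detroit 562 minus that in FaDu was -0.26 (95% interval -0.82 to 0.30), and minus that in SCC-9 -0.32 (-0.87 to 0.23, edgeR adjusted p = 0.577, and 0.0635 with the block). The PDK2 change of FaDu minus that of SCC-9 was -0.06 (-0.62 to 0.49), an interval that leaves room for sizeable differences in both directions.

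**Figure D2:**
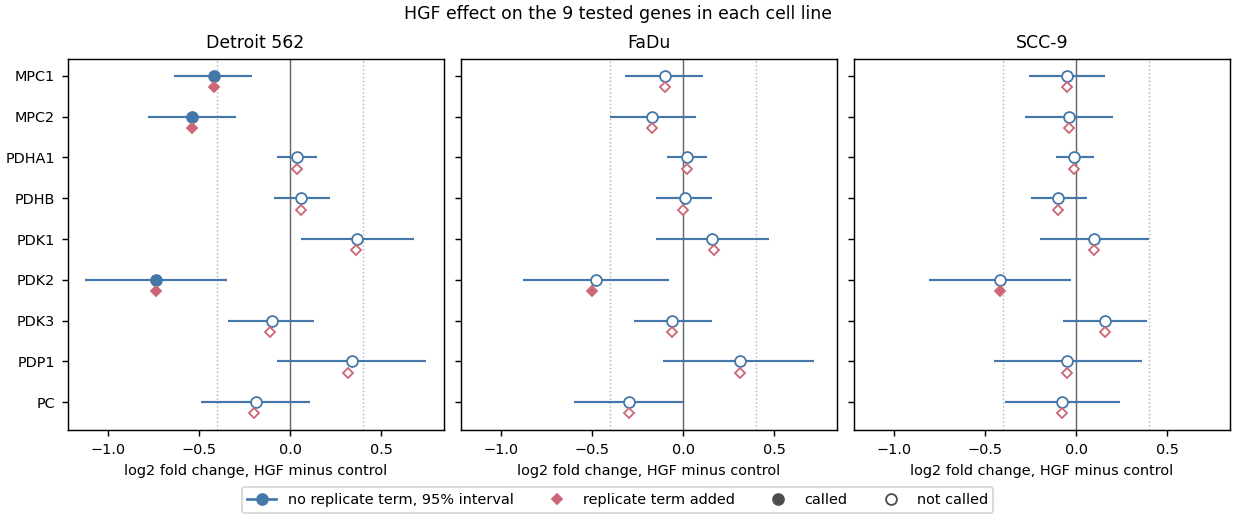
Log2 fold change with HGF (x axes) of the 9 tested genes in each line. Circles with lines are estimates and 95% intervals without a replicate term, diamonds are estimates with it, filled symbols passed the thresholds and dotted lines mark the minimum size of 0.4. PDK2 is left of 0 in all 3 lines, at -0.74, -0.48 and -0.42.

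PDK1, the kinase known for its induction by HIF1, lies at chr2:172555373-172608669 on the plus strand. Its counts in Detroit 562 were 589.7, 643 and 705 in control and 750, 776 and 972 in HGF libraries, without overlap. In FaDu they were 584, 816 and 538 against 659, 855 and 657, and in SCC-9 1149, 1015 and 1031 against 1192, 1074 and 1158. PDK1 was higher with HGF in 9 of 9 pairs, as were 7.7% of all genes, but the FaDu and SCC-9 groups overlapped. The log2 change was 0.37 in Detroit 562 (SE 0.147, 95% interval 0.06 to 0.68, edgeR adjusted p = 0.0768), short of the minimum size of 0.4, and 0.16 and 0.10 in FaDu and SCC-9. With HGF replicate 1, HGF replicate 2 or control replicate 3 of Detroit 562 left out it passed, at 0.44, 0.41 and 0.43, and without HGF replicate 3 it was 0.24 (edgeR adjusted p = 0.304). The PDK1 effect in Detroit 562 minus that in SCC-9 was 0.27 (edgeR adjusted p = 0.56, and 0.0498 with the block).

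PDK1 and PDK2 can be set against each other within a library, per kilobase of exon. The log2 of PDK1 over PDK2 was -1.59, -1.33 and -0.84 in control and -0.44, -0.26 and 0.22 in HGF libraries of Detroit 562. In FaDu it was -0.80, -0.47 and -0.51 against -0.04, -0.11 and 0.42, and in SCC-9 -0.25, -0.38 and -0.46 against 0.23, 0.08 and 0.16. Every HGF library lay above every control library of its line. This ratio was not among those planned. It sets a gene that was higher with HGF in every pair of libraries over a gene that was lower in every pair. The separation therefore partly follows from the choice of genes, and how often ratios of other genes separate was not tested. The mean HGF minus control difference was 1.09 (Detroit 562), 0.69 (FaDu) and 0.52 (SCC-9), with exact two-sided permutation p = 0.1 in each line, the smallest value 3 libraries against 3 allow. These differences do not depend on the gene lengths, while the level of the ratio does. The counts also include intron reads, which division by exon length does not account for. With the lengths used here PDK1 was above PDK2 on average in HGF-treated FaDu and SCC-9 (mean log2 ratios of 0.09 and 0.15). With the length of the canonical transcripts PDK2 was above PDK1 in all 6 groups, with mean log2 ratios from -1.88 to -0.47.

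**Figure D3:**
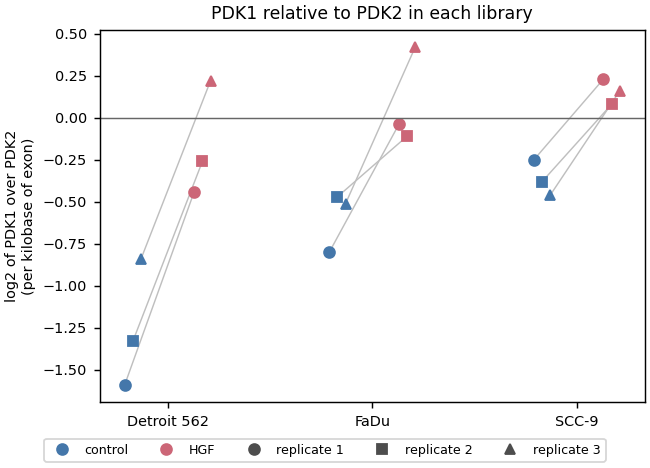
Log2 of PDK1 over PDK2 (y axis, both per kilobase of exon) in each library by line. Grey lines join control and HGF libraries of the same replicate number, and at 0 both genes have the same reads per kilobase of exon. The ratio is higher with HGF along all 9 lines.

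PDK3 (chrX:24465221-24539837, plus strand) and PDK4 (chr7:95583499-95596491, minus strand) were the remaining kinases. PDK3 counts were 218, 212 and 232 in control and 179, 229.9 and 209.8 in HGF libraries of Detroit 562. They were 793, 858 and 709.6 against 739, 839 and 693 in FaDu, and 239, 253 and 258 against 271, 289.8 and 279 in SCC-9. PDK3 stood higher in FaDu than in the other lines in every library, and with HGF only SCC-9 showed separate groups (log2 change of 0.16, 95% interval -0.07 to 0.39, edgeR adjusted p = 1). PDK4, the fasting-induced kinase controlled by PPAR and FOXO factors, was at or near 0. It had 0 reads in 10 of 18 libraries, at most 4 reads in any and 12 in all, so no fold change is given. A count of 0 allows up to 3 reads, or 0.0682 to 0.085 CPM over these depths, and this limit covers counting error only.

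As shares of the 4 PDKs summed per kilobase of exon, PDK2 made up 64.7% ± 5.85 (SD, n = 3) in untreated Detroit 562, 42.4% ± 2.25 in FaDu and 51.6% ± 1.43 in SCC-9. With HGF these shares were 48% ± 5.49, 33.2% ± 4.47 and 42.6% ± 0.924. PDK1 took 27.3% ± 4.84, 28.1% ± 2.43 and 40.2% ± 1.85 without HGF and 42.9% ± 5.26, 35.2% ± 2.32 and 47.4% ± 1.47 with it. The shares of these kinases moved in opposite directions in all 3 lines, in 3 of 3 pairs each. Parts of the same sum are tied to each other, so a fall of PDK2 alone raises the share of PDK1. The opposite directions are therefore no separate evidence of a rise in PDK1. In SCC-9 the PDK1 share rose while PDK1 itself changed by 0.10 on the log2 scale and was not called. These shares depend on the lengths, and the counts divided by exon length include intron reads. With canonical transcripts the untreated shares were 49.4%, 17.5% and 40.6% for PDK2 and 13.5%, 7.54% and 20.5% for PDK1, with the same directions under HGF. The share of PDK3 depends most on its length, 17456 bases over all annotated exons and 1741 in the canonical transcript. In untreated FaDu it was 29.5% by the first and 74.9% by the second. The summed PDKs relative to the summed PDHA1 and PDHB changed by -0.34 on the log2 scale in Detroit 562 (exact permutation p = 0.1), -0.16 in FaDu and -0.12 in SCC-9. Without division by length the values were -0.11 in Detroit 562 and 0.01 in SCC-9, a change of direction. In FaDu the value was -0.03 without control replicate 2, -0.08 without HGF replicate 3, -0.31 without HGF replicate 2 and -0.30 without control replicate 3.

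PDP1 encodes the catalytic subunit of the phosphatase that reactivates the complex (chromosome 8, plus strand). Its counts were 2790, 2841 and 3517 in control and 3283, 3286 and 4979 in HGF libraries of Detroit 562. They were 1183, 1847 and 1892 against 1498, 2053 and 2535 in FaDu, and 5435, 5159 and 5449 against 5190, 5035 and 5303 in SCC-9. PDP1 was higher with HGF in all pairs of Detroit 562 and FaDu and lower in all pairs of SCC-9, while the groups overlapped in each line. Replicate 3 was the highest of both treatments in Detroit 562 and FaDu. The log2 changes were 0.34 (SE 0.194, edgeR adjusted p = 0.215), 0.31 and -0.05. Without HGF replicate 3 of Detroit 562 the first was 0.11 (edgeR adjusted p = 0.744). The value of FaDu was 0.12 without HGF replicate 3 or control replicate 1, and 0.48 without HGF replicate 1. With the replicate block the first 2 passed the adjusted p (0.000601 and 0.006, at 0.32 and 0.31) but not the minimum size. The PDP1 effect of SCC-9 differed from those of Detroit 562 and FaDu only in the blocked model (differences of 0.36 and 0.35, edgeR adjusted p = 0.00848 and 0.0854), where 1.32% of genes passed for FaDu against SCC-9.

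PC makes oxaloacetate and refills the citric acid cycle (chr11:66848233-66958376, minus strand). It had 2129, 2023 and 1921 counts in control and 1968, 1613 and 1729 in HGF libraries of Detroit 562. In FaDu the counts were 2361, 2159 and 1609 against 1857, 1809 and 1312, and in SCC-9 697, 686 and 589 against 651, 670.4 and 548. PC was lower with HGF in 9 of 9 pairs, while the groups overlapped in every line. The log2 changes of -0.19, -0.30 and -0.08 were not called. In FaDu the unadjusted p of PC was 0.0496 by edgeR, and 0.618 after adjustment across all genes. Without HGF replicate 3 or control replicate 1 the change there was -0.14 and -0.18, and without control replicate 3 it was -0.45. With the block both of the first 2 had small adjusted p values by edgeR (0.00643 and 0.00202), at sizes below the minimum.

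The untreated lines differed from each other in most of these genes. PDHA1 in Detroit 562 stood far below the other lines, PDK3 was highest in FaDu, PC was low in SCC-9, and PDP1 ran from FaDu through Detroit 562 to SCC-9. Of the 9 tested members 6 were called between Detroit 562 and FaDu, 5 between Detroit 562 and SCC-9 and 5 between FaDu and SCC-9. The shares of all genes were 61%, 65.4% and 64.2%, so the members' counts of 5 and 6 are near the background.

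**Figure D4:**
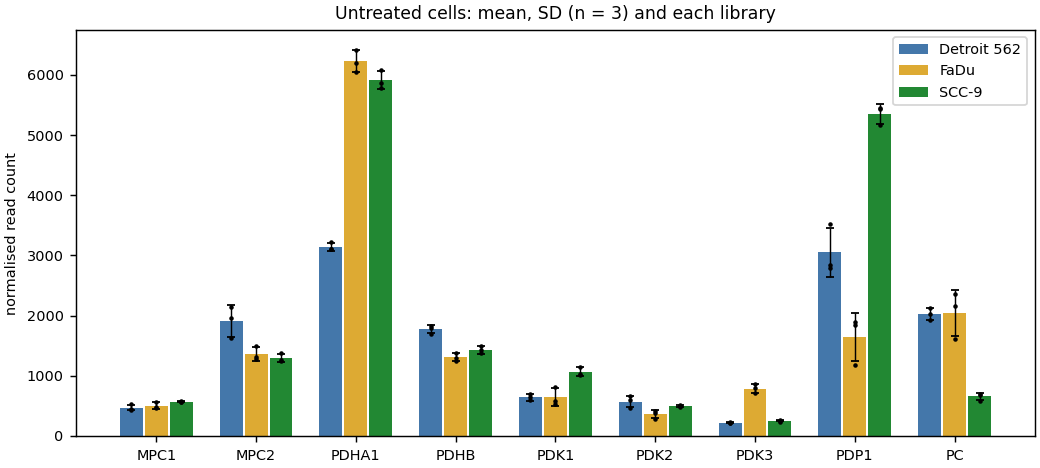
Mean normalised read counts (y axis, from 0) of the 9 tested genes in untreated cells, with bars for the mean, whiskers for the SD of 3 libraries and dots for the libraries. Gene length is not accounted for, so heights compare lines within a gene. PDHA1 in Detroit 562 (3146) stands below FaDu (6225) and SCC-9 (5910).

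Mean normalised counts of PDHA1 were 3146 ± 66.5 (SD, n = 3) in untreated Detroit 562, 6225 ± 185 in FaDu and 5910 ± 150 in SCC-9. Detroit 562 was lower by log2 differences of -0.98 and -0.91 (SE 0.0517 and 0.0516, edgeR adjusted p = 3.46e-11 and 6.83e-11), and FaDu and SCC-9 did not differ beyond their spread (0.07, 95% interval -0.03 to 0.18). PDHB had the reverse order, with 1777 ± 73.8 in Detroit 562, 1432 ± 65.8 in SCC-9 and 1310 ± 69.3 in FaDu. Detroit 562 exceeded FaDu by 0.44 (edgeR adjusted p = 4.45e-05) and SCC-9 by 0.31 (adjusted p = 0.00104), the latter below the minimum size.

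For PDK3 the untreated mean was 787 ± 74.3 in FaDu against 221 ± 10.1 in Detroit 562 and 249.9 ± 9.84 in SCC-9. The log2 differences from FaDu were -1.83 and 1.65 (Detroit 562 minus FaDu and FaDu minus SCC-9, edgeR adjusted p = 1.54e-10 and 4.1e-10), and Detroit 562 and SCC-9 were neighbours that did not differ by the test (-0.18, -0.41 to 0.05). PDK1 was highest in SCC-9 (1065 ± 73.2), above Detroit 562 and FaDu by 0.72 each, and these 2 were level (646 ± 57.7 and 646 ± 149). PDK2 was lowest in FaDu (358 ± 68.3), 0.68 below Detroit 562 and 0.49 below SCC-9 (edgeR adjusted p = 0.00342 and 0.0229). The latter was lost without FaDu control replicate 3 (-0.35, edgeR adjusted p = 0.114).

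PDP1 averaged 5348 ± 163 in SCC-9, 3049 ± 406 in Detroit 562 and 1641 ± 397 in FaDu, and each step passed the test (log2 differences of -0.81 for Detroit 562 minus SCC-9 and 0.89 for Detroit 562 minus FaDu, edgeR adjusted p = 0.00118 and 0.000609). PC had 2024 ± 104 in Detroit 562 and 2043 ± 389 in FaDu, which did not differ (-0.01, -0.31 to 0.29), and 657 ± 59.8 in SCC-9, lower by 1.62 and 1.64. MPC2 was highest in Detroit 562 (1912 ± 264), by 0.49 over FaDu and 0.56 over SCC-9 (edgeR adjusted p = 0.000877 and 0.000222), and with HGF it reached 1313 ± 156 there, next to 1363 ± 121 and 1294 ± 67.0 in the untreated other lines. MPC1 means of 472 ± 48.9, 506 ± 58.3 and 572 ± 11.95 gave no call.

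Per kilobase of exon and 1e6 reads (RPKM), PDHA1 had 15.8, 31.3 and 29.8 in untreated Detroit 562, FaDu and SCC-9, and PDHB 9.39, 6.93 and 7.57. By this measure the kinases were lower than either subunit, PDK1 from 1.08 to 1.79, PDK2 from 1.63 to 2.61 and PDK3 from 0.316 to 1.12. The counts include intron reads while the lengths are those of exons, so different genes are compared only roughly. With the canonical lengths PDK3 in FaDu came to 11.3, still below the 46.4 and 21.7 of PDHA1 and PDHB there.

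The other genes of the pathway were followed in lists of 66 genes, of which 59 were tested. In Detroit 562 5 rose and 6 fell, 11 of 59 beside the 17.9% of all genes given above, and in FaDu and SCC-9 0 were called. With the replicate block there were 5 up and 9 down in Detroit 562, 2 up and 4 down in FaDu and 1 up and 1 down in SCC-9. The shares of all genes called with the block were 5.6% in FaDu and 1.97% in SCC-9. For Detroit 562 that share is not given here, so its blocked counts cannot be set against a background. No call was made among the partners of PDHA1 and PDHB. Of the remaining subunits and helpers of the complex (PDHX, DLAT, DLD, PDPR, PDP2, LIAS, LIPT1 and LIPT2) 0 of 8 were called in any line with or without the block, with a median log2 change of 0.12 in Detroit 562. PDP2, the second phosphatase catalytic subunit, changed by 0.29 there (edgeR adjusted p = 0.0412), below the minimum size.

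Around pyruvate, LDHA, which reduces it to lactate, rose by 0.43 in Detroit 562 (33780 ± 4270 to 45590 ± 3994 counts, edgeR adjusted p = 0.00394), next to the fall of MPC1 and MPC2 in the same libraries. The lactate and pyruvate transporter SLC16A1 rose by 0.45 (adjusted p = 0.0225), and ME1, which makes pyruvate from malate in the cytosol, fell by 0.41 (adjusted p = 0.0917). ACSS2, which makes acetyl-CoA from acetate, fell by 0.53 (edgeR adjusted p = 0.0406), while the citrate synthase gene CS changed by 0.06. With the block the mitochondrial malic enzyme gene ME3 was called in Detroit 562 as well (-0.62, edgeR adjusted p = 0.0327), and in FaDu ACSS2 (-0.47) and its mitochondrial counterpart ACSS1 (-0.53) were.

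Among factors linked to PDK4, PPARA (-0.49) and RXRA (-0.59) fell and ESRRA (0.47) rose in Detroit 562, while PDK4 itself had at most 4 reads in a library. In Detroit 562 (-0.76) and FaDu (-0.58) FOXO4 was called with the block but not without it. Of the PPAR target genes 1 of 7 rose in Detroit 562, ANGPTL4 (1.03, edgeR adjusted p = 0.0572), and with the block it was called in FaDu and SCC-9 as well (1.33 and 0.84). Of the HIF1 targets other than PDK1 1 of 10 rose in Detroit 562, the mitophagy gene BNIP3 (1.09, edgeR adjusted p = 0.00263), and the list's median was -0.10. With the block BNIP3L, another mitophagy gene, was called lower there (-0.44, edgeR adjusted p = 0.00165). Of 7 glucocorticoid-responsive genes, TSC22D3 (-1.13) and KLF9 (-0.96) were called lower in Detroit 562. The others, FKBP5 (0.26), PER1 (0.20), ZBTB16 (1.04), DUSP1 (-0.38) and SGK1 (-0.09), were not called there, and the list's median was -0.09. With the block TSC22D3 was also called lower in FaDu (-0.47, edgeR adjusted p = 0.0125) and SCC-9 (-0.40, edgeR adjusted p = 0.00917), and SGK1 higher in FaDu (0.43). In untreated cells FKBP5, PER1, ZBTB16, TSC22D3, KLF9 and DUSP1 of that list were called lower in both lines grown without hydrocortisone than in SCC-9. The log2 differences for Detroit 562 were -3.06, -2.60, -6.12, -0.57, -3.14 and -2.32. SGK1 was not called (-0.28 for Detroit 562 and -0.24 for FaDu). ZBTB16 averaged only 1.36 normalised counts in untreated Detroit 562. Of all genes 65.4% were called for Detroit 562 against SCC-9 and 64.2% for FaDu against SCC-9. The part of the medium in the PC, PDP1 and PDK1 levels of SCC-9 cannot be told apart from the line.

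Across the 18 libraries, after the mean of each line was subtracted, MPC1 and MPC2 varied together (Pearson r = 0.88, n = 18), and PDK2 varied with them (0.72 and 0.75). PDP1 varied against them (-0.72 and -0.75). These values describe libraries that share the HGF treatment and the replicate effect. The genes most like the members on this scale were CAT for PDK2 (0.982), OSMR for PDK1 (0.959), SPTSSB for MPC1 (0.959), CTDSPL for MPC2 (0.955) and KLF7 for PDP1 (0.945). For PC it was SFXN5 (0.923), for PDHB MKKS (0.878), for PDHA1 SLC25A5 (0.843) and for PDK3 SLC25A21 (0.819). Without the subtraction the closest genes followed the lines, such as C3orf14 for PDHA1 (0.997) and MFSD14A for PDK3 (0.992). FLNC (0.946) was closest for PDK1, B3GALT4 (0.952) for PDK2, SGCE (0.968) for PDHB, MTCL1 (0.977) for PDP1, CFAP36 (0.944) for MPC1, ASAH1 (0.932) for MPC2 and TNFRSF1A (0.984) for PC.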

How the data were processed

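Stranded mRNA libraries were sequenced from 3 HNSCC cell lines. Per the submitters' processing notes and the methods, the authors demultiplexed with bcl2fastq 2.20.0.422, trimmed with Cutadapt (1.16 in the notes, with a second version also named in the methods), aligned with STAR 2.5.2b to GRCh38.p12 with GENCODE 28 and counted with bedtools every read overlapping a gene's extent on its strand. The deposited values are raw counts that were not normalised, and reads in introns are included. No member overlapped another gene of the table on its strand. The duration of 16 h is that of the sample records and the methods; the series record gives another.

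Tests were run with edgeR 4.0.16 (limma 3.58.1) under R 4.3.3. filterByExpr left 15475 genes, TMM factors were used, and a quasi-likelihood model took 1 mean for each group of the 18 libraries, with p values adjusted by Benjamini-Hochberg across the 15475 genes. A call needed both an adjusted p under 0.1 and a log2 change of 0.4 or more in size, and differences of the HGF effect between lines the adjusted p alone. Normalised counts are scaled to the mean effective library size of 40094700. Shares, ratios and RPKM used exon lengths of GENCODE 44, a later release than the counts. Intron reads stayed in the counts, so these are not levels of exon reads alone. The common biological coefficient of variation was 0.116.

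Control and HGF libraries of the same replicate number correlated in their deviations from the group means (0.161 to 0.454 in Detroit 562, 0.376 to 0.563 in FaDu, 0.203 to 0.332 in SCC-9, across genes, which are not independent replicates). Libraries of different numbers correlated at -0.381 to 0.218 in Detroit 562, -0.489 to 0.139 in FaDu and -0.24 to -0.0795 in SCC-9. Deviations from a mean of 3 libraries are tied to each other. High correlations of the same number therefore pull down those of different numbers, whose sign is no separate evidence of pairing. In Detroit 562 control 1 with HGF 2 (0.218) exceeded control 2 with HGF 2 (0.161), so numbers 1 and 2 were not clearly set apart there. The numbers were still taken as pairs, and adding the number as a replicate block inside each line was the first alternative. Others were a block shared by the lines, DESeq2 1.42.0 with and without its fold change prior, other size factors and filters, single-line fits, other thresholds and each library left out. Counts for Detroit 562 were simulated with 200 of 15475 genes changed by a log2 of 1. The unblocked fit recovered 91.5% of these genes and the blocked fit 90.5%, and 9.41% and 7.65% of their calls were false. In a second simulation a replicate effect of SD 0.3 was added and the dispersion of the counts was multiplied by 0.3. Recovery was then 70.5% unblocked and 95% blocked, with 0% and 1.55% of calls false. Because both settings changed, the simulations cannot be compared for the replicate effect alone. That effect was put in by design, so the gain does not show that the block suits the real libraries. The members, lists and tests were chosen with earlier results of these data known. The named genes are the members, list genes that were called or needed to account for a list, and for each member the most correlated gene on either scale.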

Additional observations from a re-analysis of the deposited data

Results flagged for a closer look

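In 8 cases the HGF effect on a member differed between lines by the test of the difference itself, in the edgeR model with the replicate block. Between Detroit 562 and SCC-9, where 26.9% of all genes passed, the effects of 5 of 9 tested members differed, those for MPC2 (-0.50, adjusted p = 0.000726), PDP1 (0.36, adjusted p = 0.00848), MPC1 (-0.37, adjusted p = 0.0184), PDK1 (0.26, adjusted p = 0.0498) and PDK2 (-0.32, adjusted p = 0.0635). Between Detroit 562 and FaDu, where 19.1% of genes passed, 2 of 9 differed, MPC2 (-0.37, adjusted p = 0.00716) and MPC1 (-0.32, adjusted p = 0.0511), and between FaDu and SCC-9, where 1.32% passed, 1 of 9, PDP1 (0.35, adjusted p = 0.0854). Without the block 0 of 9 members passed in any of these comparisons by edgeR with all libraries. MPC2 between Detroit 562 and SCC-9 also passed by DESeq2 with and without its prior, with a block shared by the lines, with replicate numbers 1 and 2 of Detroit 562 only, and without Detroit 562 control replicate 3. Unadjusted p values there were below 0.05 for MPC1 and MPC2 in Detroit 562 against FaDu (0.0392 and 0.0304) and against SCC-9 (0.0182 and 0.00596).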

How the results depend on the processing

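Of 2484 values recomputed for single members, 2461 kept their side of the threshold, 21 crossed it upwards and 2 lost their call, and no called value changed sign. The 2 losses are those of MPC1 in Detroit 562 and PDK2 between untreated FaDu and SCC-9 given with the results. With the replicate block within each line the number of members called rose from 0 to 1 in FaDu and from 0 to 1 in SCC-9 (PDK2 in both), and in the differences of the HGF effect from 0 to 2 (Detroit 562 against FaDu), 0 to 5 (Detroit 562 against SCC-9) and 0 to 1 (FaDu against SCC-9). It changed no other member's call. With the block the genes called in the pathway lists rose from 0 to 6 in FaDu and from 0 to 2 in SCC-9, where 5.6% and 1.97% of all genes were called. The fit of 6 libraries with the block, chosen after seeing the data, gave 1 member in FaDu and 1 in SCC-9, and 5 and 4 list genes, and without the block 1 member in SCC-9. For Detroit 562 against SCC-9 a block shared by the lines, DESeq2 with and without its prior, and Detroit 562 replicate numbers 1 and 2 only (chosen after seeing the data) each gave 1 member, MPC2, and leaving out single libraries gave 0 to 1. DESeq2 with and without its prior called 1 list gene in FaDu. In Detroit 562, without a minimum fold change 25 list genes passed in place of 11, and with a stricter adjusted p (0.05) and a minimum log2 change of 1, 0 members and 2 list genes did, while leaving out single libraries gave 5 to 16 list genes. With replicate numbers 1 and 2 of Detroit 562 only, PDK2, MPC1 and MPC2 were at -0.80, -0.46 and -0.55 and kept their calls.

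Shares and ratios depended on the gene length. With canonical lengths the HGF difference of the PDK1 share was 7.72, 1.58 and 2.41 percentage points in Detroit 562, FaDu and SCC-9, that of the PDK2 share in FaDu -4.17, that of the PDK3 share 5.12 in Detroit 562 and 6.53 in SCC-9, and the log2 of summed PDKs over PDHA1 and PDHB in SCC-9 differed by -0.02. Without division by length the PDK1 and PDK2 shares in SCC-9 moved by 4.95 and -6.72, the PDK3 share turned to -0.44 in Detroit 562 and -0.43 in FaDu, and the log2 of PDKs over PDHA1 and PDHB was -0.11 in Detroit 562 and turned to 0.01 in SCC-9. Leaving out single libraries moved the log2 of MPC1 over MPC2 in SCC-9 from -0.01 to between -0.09 and 0.07. With 3 libraries a group, changes of the sizes covered by the intervals of members that were not called are not excluded.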

Other observations

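PDHX, the subunit that anchors dihydrolipoamide dehydrogenase in the complex, was named here after its values were seen. Its normalised counts in untreated cells were 13960 ± 639.6 (SD, n = 3) in Detroit 562 against 1660 ± 25.6 in FaDu and 1464 ± 39.7 in SCC-9. Detroit 562 exceeded FaDu by 3.07 and SCC-9 by 3.25 on the log2 scale (edgeR adjusted p = 1.01e-15 and 2.01e-16). In the same cells PDHA1 was lower than in either of the other lines.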
